A study of Homo sapiens with 12 samples.

Results

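Complement is a cascade of plasma proteins that tags microbes, debris and synapses for removal, and 9 of its genes were followed here through a model of microglial stimulation. They were C1QA, C1QB and C1QC (the 3 chains of C1q), C2, C3, CFB (complement factor B), CFP (properdin), and the receptor genes C3AR1 and C5AR1. They were picked by symbol, as the rows of the count table whose Ensembl ID carries one of these names, and make up 9 of the 57992 gene IDs. Of these, 8 passed the filter on low counts, as did 16022 genes in all, and CFB did not.

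RNA sequencing covered 12 libraries of induced microglia-like cells (iMGLs), which resemble the resident macrophages of the brain and were differentiated from H1, a human pluripotent stem cell line. There were 5 groups. KO LPS BMS held MEF2C-knockout cells with LPS and BMS265246, which the series title describes as a CDK2 inhibitor (2 libraries). The others were KO LPS (knockout cells with LPS; 2 libraries), WT LPS (unedited cells with LPS; 2 libraries), KO (knockout cells with vehicle; 3 libraries) and WT (unedited cells with vehicle; 3 libraries). MEF2C is a transcription factor expressed in microglia, and LPS is a bacterial lipopolysaccharide sensed through TLR4. Every library came from 1 parental line. The compound was sequenced only in KO cells with LPS, so its effect in WT cells and without LPS was not measured. For doses, times, the kind of edit and the number of clones nothing is stated in the sources used here.

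C1q recognises antibody complexes, apoptotic cells and synapses, and starts the classical pathway, in which C2 forms part of the enzyme that cleaves C3. In the alternative pathway factor B supplies the protease of a second C3-cleaving enzyme, and properdin stabilises that enzyme. Cleaved C3 coats targets for uptake, and its small fragment C3a, like C5a from C5, signals through a G protein-coupled receptor on myeloid cells. In the brain, microglia are the main source of C1q, and in mice C1q, C3 and the microglial receptor CR3 take part in the pruning of synapses.

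The promoters of 4 genes that moved with genotype, with LPS or with the compound are shown so that their sequence can be set beside the levels. The 4 are a selection, as C3, C1QB and C1QC moved too and are not shown. RefSeq on GRCh38.p14 had promoter entries for 7 of the 9 genes, with 10 starts, and 1 start is used for each gene shown. The bases below are the part of the 250 bases before the RefSeq start that lies outside every GENCODE 29 exon, 5′ to 3′ on the gene's strand, with motif matches in capitals; for C3AR1 that part is 138 bases.
C1QA, chr1:22636213-22636462, plus strand: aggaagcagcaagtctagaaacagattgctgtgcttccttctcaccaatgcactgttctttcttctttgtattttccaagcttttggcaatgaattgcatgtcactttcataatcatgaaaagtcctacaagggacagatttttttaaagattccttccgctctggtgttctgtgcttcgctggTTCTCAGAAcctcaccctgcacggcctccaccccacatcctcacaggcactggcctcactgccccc
CFP, chrX:47630306-47630555, minus strand: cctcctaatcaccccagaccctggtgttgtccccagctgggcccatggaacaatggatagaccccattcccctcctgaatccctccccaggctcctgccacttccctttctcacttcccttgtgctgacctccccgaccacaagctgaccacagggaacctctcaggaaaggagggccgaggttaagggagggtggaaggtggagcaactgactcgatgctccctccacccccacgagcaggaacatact
C3AR1, chr12:8066472-8066609, minus strand: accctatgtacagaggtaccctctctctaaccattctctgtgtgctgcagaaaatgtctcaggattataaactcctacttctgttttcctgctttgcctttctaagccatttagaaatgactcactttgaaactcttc
C5AR1, chr19:47309611-47309860, plus strand: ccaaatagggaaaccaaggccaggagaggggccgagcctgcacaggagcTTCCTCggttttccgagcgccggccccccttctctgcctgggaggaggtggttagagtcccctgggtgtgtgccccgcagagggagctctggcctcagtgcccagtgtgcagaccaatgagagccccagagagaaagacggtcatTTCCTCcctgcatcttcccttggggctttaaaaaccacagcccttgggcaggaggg
Both strands were searched for the PU.1 core GAGGAA, the STAT site TTCNNNGAA, and the interferon-stimulated response element, NF-kB and MEF2 consensus motifs. The window of C5AR1 held 2 matches to the PU.1 core, read as TTCCTC, and 23.6% of 35116 promoters held at least 1 in a window of that length. The window of C1QA held 1 match to the STAT site, which 6.57% of the promoters held. The windows of CFP and C3AR1 held no match to any of the 5, and a match or its absence here is a description of these letters only.

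Levels are CPM, each count scaled to its library's total after TMM normalization. Total counts ranged from 13888283 to 17639136. Changes are log2 fold changes ± SE from edgeR's quasi-likelihood test, with genes called where the adjusted p (Benjamini-Hochberg, over 16022 genes) was under 0.05. MEF2C itself was lower but not absent in the cells labelled KO, with 136, 129 and 135 CPM in KO libraries, against 193, 183 and 177 CPM in WT libraries (-0.47 ± 0.05, adjusted p = 4e-07). With LPS it had 45.9 and 46.8 CPM in KO LPS libraries, against 49.6 and 51.6 CPM in WT LPS libraries, which was not called (-0.13 ± 0.07, adjusted p = 0.187). LPS itself moved MEF2C by -1.86 in WT and -1.52 in KO cells. MEF2C was thus called lower under the KO label only in the libraries without LPS, where 11.4% of all genes were called lower. As the kind of edit is not stated, this RNA level does not by itself show a knockout. The KO LPS pair differed from each other more than the other pairs, with a chi-square per degree of freedom of 11.05, against 2.02 to 6.99.

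The microglial genes CSF1R and AIF1 were well above the detection floor in every library, P2RY12 was low (1.69 to 16.6 CPM) and SALL1 was at or near 0 (0 to 0.158 CPM). The summed level of the 12 microglial markers was 3390 to 3629.5 CPM in KO LPS BMS, 3240.4 to 3443.5 CPM in KO LPS, 3346 to 3519.8 CPM in WT LPS, 3828 to 3924 CPM in KO and 4100.0 to 4220.5 CPM in WT. That of 10 markers of monocytes and border macrophages was 3245 to 3442 CPM in KO LPS BMS, 4235 to 4403 CPM in KO LPS, 3033 to 3043.5 CPM in WT LPS, 3402 to 3473 CPM in KO and 2119.9 to 2198 CPM in WT. CSF1R was the largest part of the microglial sum, and CD14, MRC1 and CD163 supplied most of the other. MRC1 was at 1010 to 1020 CPM in KO LPS BMS, against 597 to 677 CPM in KO LPS. CD14 was at 686 to 835 CPM, against 1250 to 1610 CPM, and CD163 at 1100 to 1110 CPM, against 1220 to 1310 CPM. The sums thus do not show how single markers moved. Without LPS 8 of the 10 monocyte and border macrophage markers were called higher in KO and 1 lower, where 10.2% of all genes were called higher and 11.4% lower. Of the 11 microglial markers tested there, 1 was called higher and 5 lower. The part of either marker list in the complement results was not tested. In bulk RNA fewer cells of a type cannot be told apart from less RNA per cell. Of 8 hepatocyte genes, chosen because the liver makes most plasma complement, SERPINA1 accounted for nearly all of the sum, and ALB stayed at or below 0.516 CPM except in KO LPS BMS replicate 1 (5.91 CPM). Of 6 astrocyte genes AQP4 and ALDH1L1 were at 0 in every library. The list's summed level was 278 to 289 CPM in KO LPS BMS, 341 to 353 CPM in KO LPS, 557 to 573 CPM in WT LPS, 48.9 to 55.2 CPM in KO and 36.5 to 41.0 CPM in WT. SLC1A3 and GJA1 accounted for nearly all of it, while GFAP and AGT stayed at or below 0.649 CPM in every library. SLC1A3 was at 306 to 315 CPM in WT LPS and 33.6 to 38.5 CPM in WT, and GJA1 at 251 to 257 CPM and 1.96 to 2.11 CPM. The other lists stayed within 446 to 594 CPM (7 granulocytic genes), 221 to 593 CPM (6 endothelial genes), 10.2 to 59.4 CPM (7 mesenchymal genes) and 0.394 to 2.57 CPM (6 pluripotency genes) over all libraries. CLC and CSF3R supplied nearly all of the granulocytic sum, and PECAM1 nearly all of the endothelial sum.

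C3, properdin and the B and C chains of C1q were lower in KO than in WT cells, LPS raised C3, properdin and both receptors in either genotype (C3 in WT cells not with size-only scaling), and the compound, added to KO cells with LPS, lowered C3, properdin and C3AR1 and raised all 3 C1q chains. In KO against WT without LPS, 4 of the 8 tested genes were called, each of them lower. Of all genes tested, 21.6% were called there, 10.2% higher and 11.4% lower. WT LPS against WT had 4 of 8 called, each higher, where 59.7% of all genes were called (28.9% higher and 30.8% lower). KO LPS against KO also had 4 of 8 called higher, where 44.8% of all genes were called (24.5% higher and 20.3% lower). KO LPS against WT LPS had 2 of 8 called lower, where 30.6% of all genes were called (15.6% higher and 15% lower). The genotype by LPS interaction tests whether LPS changed a gene differently in KO and WT cells. It was called for 1 of 8, C3, and for 12% of all genes (6.42% higher and 5.57% lower). KO LPS BMS against KO LPS had 3 called higher and 3 called lower, where 47.8% of all genes were called (22.3% higher and 25.5% lower). KO LPS BMS against KO had 7 of 8 called higher (with size-only scaling 4 called, C3 among them as lower), where 62.7% of all genes were called (30.3% higher and 32.4% lower). Comparisons with a common group, such as KO against WT and KO LPS against KO, share those libraries and are not independent of each other.

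**Figure D1:**
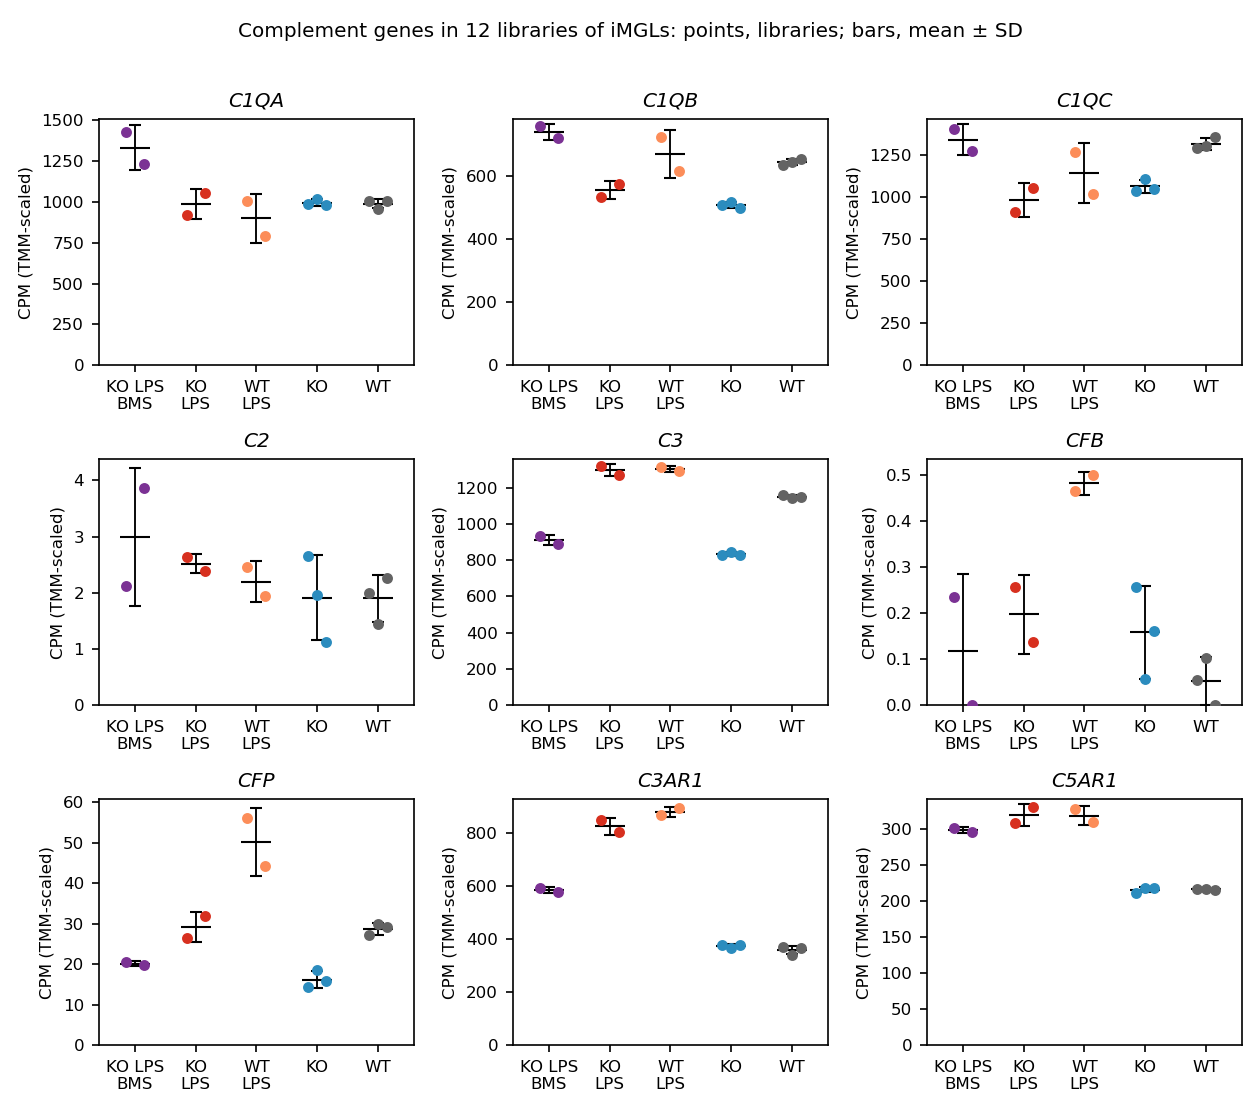
Level of each of the 9 complement genes in CPM (TMM-scaled, linear axis from 0) by group; points are libraries, the long bar is the mean and whiskers the SD (2 or 3 libraries). C3 sits at 826 to 847 CPM in the 3 KO libraries, below the 1142 to 1159 CPM of the 3 WT libraries, while C3AR1 separates libraries with LPS from those without.

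The 3 chains of C1q are assembled together into 1 protein, and their genes lie side by side on chromosome 1 (GRCh38, plus strand, GENCODE 29): C1QA (ENSG00000173372) from 22636506 to 22639608, C1QC (ENSG00000159189) from 22643630 to 22648110 and C1QB (ENSG00000173369) from 22652762 to 22661538. The B and C chains were lower in KO than in WT cells. C1QB had 508, 518 and 497 CPM in KO libraries, against 636, 645 and 655 CPM in WT libraries. The groups did not overlap, and KO was lower (-0.35 ± 0.05, adjusted p = 3.38e-05). C1QC had 1040.0, 1109.7 and 1049 CPM in KO libraries, against 1295, 1305 and 1361 CPM in WT libraries, again without overlap (-0.31 ± 0.08, adjusted p = 0.0123). C1QA had 985, 1019 and 978 CPM in KO libraries, against 1005, 958 and 1005 CPM in WT libraries, and these ranges overlapped (0.01 ± 0.08, adjusted p = 0.968).

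With TMM scaling LPS gave no called change of a C1q chain in either genotype, but this depended on the settings. In WT cells C1QC had 1271 and 1019 CPM with LPS, against 1295 to 1361 CPM without, at -0.21 ± 0.09 (adjusted p = 0.0582), and C1QA was at -0.14 ± 0.10 (adjusted p = 0.237). The 2 WT LPS libraries differed from each other in all 3 chains, and C1QA had 1005 CPM in replicate 1 and 793 CPM in replicate 2. Without WT LPS replicate 1 the fit called C1QC (-0.37, adjusted p = 0.000255) and C1QA (-0.32, adjusted p = 0.00246) lower with LPS, and without replicate 2 it called C1QB higher (0.17, adjusted p = 0.0222). In KO cells the LPS changes were -0.01 ± 0.10 for C1QA, 0.13 ± 0.06 for C1QB (adjusted p = 0.0837) and -0.12 ± 0.09 for C1QC. With libraries scaled by size alone, which moved the median of all genes by -0.29 in WT and -0.25 in KO cells, the chains were called lower with LPS in WT cells (C1QA -0.42, C1QB -0.23 and C1QC -0.49). In KO cells C1QA (-0.27) and C1QC (-0.37) were called lower under that scaling. Without a filter on low counts C1QA (-0.15) and C1QC (-0.22) were called lower in WT cells and C1QC (-0.16) in KO cells. None of the 3 was called for a genotype by LPS interaction, with values of 0.07 to 0.13, but without WT LPS replicate 1 C1QA was (0.31, adjusted p = 0.0494).

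With LPS in both genotypes, C1QB was lower in KO cells, with 534 and 575 CPM in KO LPS libraries, against 724 and 615 CPM in WT LPS libraries (-0.27 ± 0.06, adjusted p = 0.00291). The groups did not overlap, but without WT LPS replicate 1 the difference was -0.15 and no longer called (adjusted p = 0.0769), nor was it with only the groups compared in the fit (-0.28, adjusted p = 0.0695). C1QC was at -0.22 ± 0.09 (adjusted p = 0.103) and was called in 5 of 10 alternatives. These were no filter on low counts (-0.25, adjusted p = 0.000159), DESeq2 (-0.26, adjusted p = 0.0191), its size factors (-0.26, adjusted p = 0.0319), and the fits without WT LPS replicate 2 (-0.37, adjusted p = 0.00143) and without KO LPS replicate 2 (-0.33, adjusted p = 0.0320). C1QA was at 0.13 ± 0.10 (adjusted p = 0.370), and at 0.31 (adjusted p = 0.00980) without WT LPS replicate 1.

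The compound raised all 3 chains in KO cells with LPS. C1QA had 1429.5 and 1235 CPM in KO LPS BMS libraries, against 920.4 and 1052 CPM in KO LPS libraries (0.43 ± 0.10, adjusted p = 0.00512). C1QB had 758 and 721 CPM in KO LPS BMS libraries, against 534 and 575 CPM in KO LPS libraries (0.41 ± 0.06, adjusted p = 1.78e-05). C1QC had 1411 and 1279 CPM in KO LPS BMS libraries, against 912.5 and 1055 CPM in KO LPS libraries (0.45 ± 0.09, adjusted p = 0.00175). For each chain both libraries with the compound were above both without it, a gain of 1.33-fold to 1.37-fold. How many of all genes separated in this way was not counted, and 22.3% of them were called higher in this comparison. Against KO cells without LPS the chains were higher too, by 0.42 ± 0.09 (C1QA, adjusted p = 0.00221), 0.54 ± 0.06 (C1QB, adjusted p = 4.47e-08) and 0.33 ± 0.09 (C1QC, adjusted p = 0.00443). With libraries scaled by size alone C1QA (0.08) and C1QC (0.00) were not called.

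With C1QB and C1QC lower in KO cells and no called change of C1QA, the make-up of the C1q transcripts differed between genotypes. Per kilobase of exon, C1QA made up 42.3% and 40.8% of the 3 chains in KO LPS BMS libraries, 41.6% and 41.8% in KO LPS libraries, 36.0% and 35.2% in WT LPS libraries, 41.4%, 41.0% and 41.2% in KO libraries, and 36.6%, 35.3% and 35.6% in WT libraries. All 7 libraries labelled KO were thus above all 5 labelled WT, with or without LPS. This share was chosen after its values were seen, is fixed in part by the changes above, and has no test. Per kilobase, C1QC led in WT cells (989 ± 26.5 CPM per kb, against 778 ± 21.6 for C1QA, SD, n = 3). In KO cells C1QC (799 ± 28.4 CPM per kb) was close to C1QA (782 ± 17.2, SD, n = 3). C1QC made up 41.6%, 42.5% and 42.1% of the 3 chains in KO libraries, slightly above C1QA in each library. C1QB was the lowest of the 3 chains in every group.

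**Figure D2:**
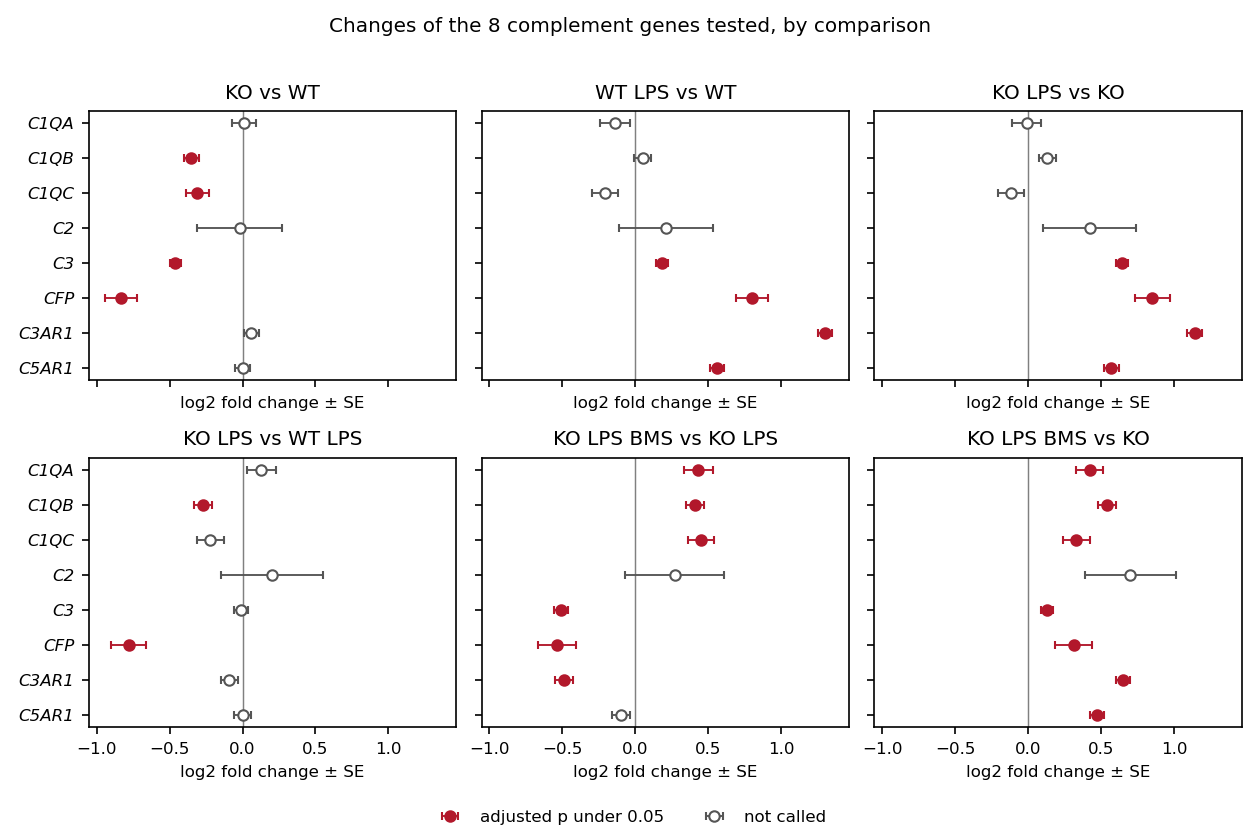
Log2 fold change ± SE of the 8 tested genes in 6 comparisons, as the group named first over the group named after it; filled points have an adjusted p under 0.05 (edgeR's quasi-likelihood test). The compound comparison separates the C1q chains, at 0.41 to 0.45, from C3, CFP and C3AR1, at -0.54 to -0.49.

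C2 and CFB, the genes of the proteases of the classical and alternative C3-cleaving enzymes, lie head to tail on chromosome 6 (GRCh38, plus strand), C2 (ENSG00000166278) from 31897785 to 31945672 and CFB (ENSG00000243649) from 31945650 to 31952084. Both were scarce. C2 had 2.13 and 3.86 CPM in KO LPS BMS libraries, 2.64 and 2.39 CPM in KO LPS, 2.46 and 1.94 CPM in WT LPS, 2.65, 1.96 and 1.13 CPM in KO, and 2.00, 1.44 and 2.27 CPM in WT. These rest on 21 to 60 reads a library, every group overlapped its neighbour in level, and no comparison was called. The widest change, 0.70 ± 0.31 in KO LPS BMS against KO (adjusted p = 0.0593), was called with DESeq2's size factors (0.72, adjusted p = 0.0492), without a filter (0.69, adjusted p = 0.0353), without KO replicate 1 (0.98, adjusted p = 0.0154) and without KO LPS BMS replicate 1 (1.04, adjusted p = 0.0133). CFB had 3 and 0 reads in KO LPS BMS libraries, 4 and 2 in KO LPS, 7 and 8 in WT LPS, 4, 1 and 3 in KO, and 1, 2 and 0 in WT. Both WT LPS libraries lay above all others. CFB did not pass the filter, and the fit without a filter called it higher in WT LPS than in WT (3.02 ± 0.97, adjusted p = 0.00781), a fold change that rests on these few reads, and in none of the other 6 comparisons (adjusted p of 0.350 to 0.970). A count of 0 allows up to 3 reads, which is 0.193 CPM in KO LPS BMS replicate 2 and 0.154 CPM in WT replicate 3, a bound on counting error only. A read-through gene (ENSG00000244255) whose exons cover 78.6% of the principal CFB transcript and 63.9% of that of C2 had 0 reads in all 12 libraries. How shared reads were counted, and whether by strand, is not stated, and whether these low counts reflect low transcription was not tested.

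Properdin had more reads than C2 and CFB, at 221 to 845 a library, and moved with genotype, LPS and compound. CFP (ENSG00000126759, chromosome X, 47623172 to 47630305, minus strand) had 14.3, 18.5 and 15.8 CPM in KO libraries, against 27.2, 30.0 and 29.1 CPM in WT libraries. The groups did not overlap, and the level in KO was 0.564 times that in WT (-0.83 ± 0.11, adjusted p = 5.57e-06). LPS raised it in WT cells to 56.2 and 44.3 CPM (0.80 ± 0.11, adjusted p = 1.83e-06, against WT) and in KO cells to 26.5 and 31.9 CPM (0.85 ± 0.12, adjusted p = 5.61e-06, against KO). Both KO LPS libraries were therefore below both WT LPS libraries (-0.78 ± 0.12, adjusted p = 5.56e-05) and overlapped the range of WT libraries without LPS. The interaction was 0.04 ± 0.16 (adjusted p = 0.896), so the LPS effects of the genotypes were not shown to differ. With the compound CFP had 20.6 and 19.7 CPM, below both KO LPS libraries (-0.54 ± 0.13, adjusted p = 0.00214). Against KO the KO LPS BMS libraries were at 0.31 ± 0.13 (adjusted p = 0.0366), a call lost with size-only scaling (-0.03), with the replicate block (0.31, adjusted p = 0.0734) and without 1 of several libraries. These were KO replicate 1 (0.23, adjusted p = 0.133), KO replicate 3 (0.29, adjusted p = 0.0905), KO LPS BMS replicate 1 (0.28, adjusted p = 0.147) or KO LPS BMS replicate 2 (0.35, adjusted p = 0.0876).

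C3, on which the pathways converge, was the one gene of the 8 whose LPS response was called different between genotypes. C3 (ENSG00000125730, chromosome 19, 6677704 to 6730562, minus strand) had 826, 847 and 832 CPM in KO libraries, against 1159, 1142 and 1149.8 CPM in WT libraries. The 3 KO libraries were close to each other and well below all WT libraries (-0.46 ± 0.04, adjusted p = 9.94e-09). With LPS the genotypes showed no called difference, with 1322.5 and 1273 CPM in KO LPS libraries, against 1317 and 1292 CPM in WT LPS libraries (-0.01 ± 0.05, adjusted p = 0.929). LPS thus raised C3 by 0.64 ± 0.04 in KO cells (adjusted p = 5.52e-11) and by 0.18 ± 0.04 in WT cells (adjusted p = 0.00127), and the interaction was 0.45 ± 0.06 (adjusted p = 4.70e-05). The rise in WT cells depended on scaling. With library size alone C3 was at -0.10 (adjusted p = 0.0573) in WT LPS against WT, where the median of all genes moved by -0.29. A change of scaling moves all genes by about the same amount. The distance of C3 from the median of all genes, 0.25, was therefore bound to stay the same, and does not show whether C3 rose.

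The compound brought C3 in KO cells with LPS down to 933 and 891 CPM, against 1322.5 and 1273 CPM in KO LPS libraries (-0.51 ± 0.05, adjusted p = 2.33e-08). These levels lay between those of KO and WT cells without LPS. Against KO, KO LPS BMS libraries were at 0.13 ± 0.04 (adjusted p = 0.0169). The call was lost with no filter on low counts (0.12, adjusted p = 0.0550) and without KO replicate 1 (0.12, adjusted p = 0.0523), KO replicate 3 (0.12, adjusted p = 0.0529) or KO LPS BMS replicate 1 (0.10, adjusted p = 0.179). With size-only scaling C3 was called lower (-0.21, adjusted p = 0.000472). KO LPS BMS replicate 1, the library with the highest ALB level (5.91 CPM), had 933 CPM of C3, and without it the compound effect on C3 was -0.54. The other library with the compound also had ALB reads (0.322 CPM), where KO LPS libraries had 0.0684 to 0.516 CPM and WT libraries 0.108 to 0.36 CPM. The hepatocyte gene APOA2 was at 2.13 to 3.41 CPM in KO LPS BMS libraries and 0.41 to 1.23 CPM in KO LPS libraries. Reads of both genes thus remained when replicate 1 was left out. Their source, and any part they had in the C3 result, was not tested.

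**Figure D3:**
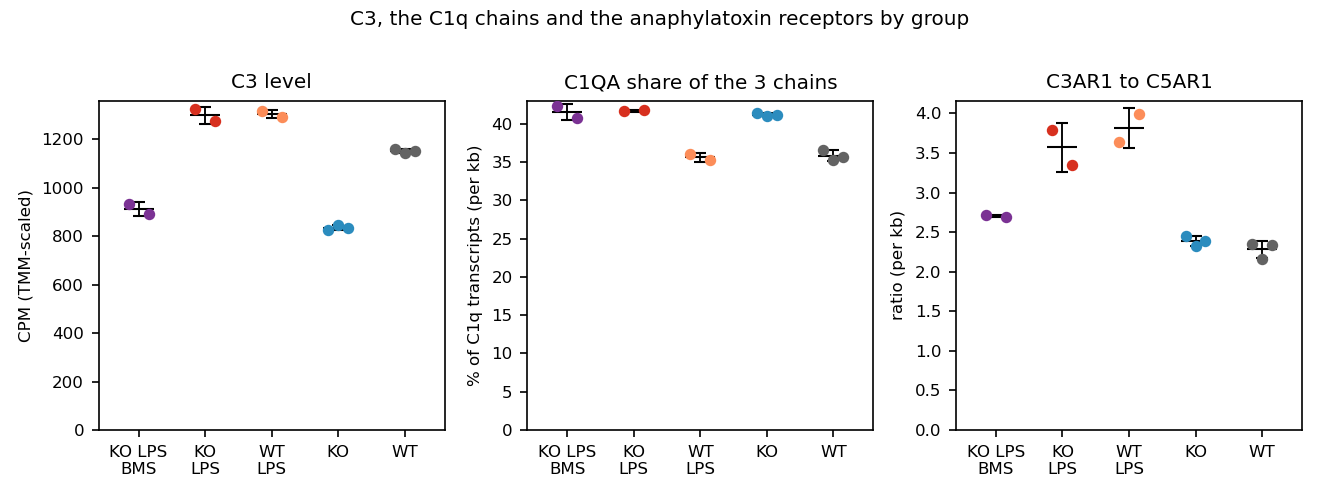
From left to right, C3 level in CPM, the C1QA share of the 3 C1q chains in percent (each chain per kilobase of exon) and the ratio of C3AR1 to C5AR1 per kilobase, by group; points are libraries, bars are means and whiskers SD, and axes start at 0. C3 is low in KO and KO LPS BMS libraries, the C1QA share is 40.8% to 42.3% in all libraries labelled KO and 35.2% to 36.6% in those labelled WT, and the receptor ratio is highest with LPS alone.

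The receptors for the C3a and C5a fragments responded to LPS and showed no called difference between genotypes. C3AR1 (ENSG00000171860, chromosome 12, 8058302 to 8066471, minus strand) had 869 and 896 CPM in WT LPS libraries, against 370.3, 339.9 and 366 CPM in WT libraries, a 2.46-fold rise (1.30 ± 0.05, adjusted p = 8.67e-16). In KO cells it had 849 and 804 CPM with LPS, against 377, 368 and 379.8 CPM without, a 2.20-fold rise (1.14 ± 0.05, adjusted p = 1.40e-14). Libraries with LPS stood far above those without in either genotype. The interaction was -0.16 ± 0.07 (adjusted p = 0.160), and it was called without KO LPS replicate 1 (-0.23, adjusted p = 0.0463). C5AR1 (ENSG00000197405, chromosome 19, 47290023 to 47322066, plus strand) had 328 and 309 CPM in WT LPS libraries, against 216, 217 and 215 CPM in WT libraries (0.56 ± 0.05, adjusted p = 3.52e-09). In KO cells it had 308 and 331 CPM with LPS, against 211, 218 and 218 CPM without (0.57 ± 0.05, adjusted p = 5.39e-09). Without LPS KO differed from WT by 0.06 ± 0.05 for C3AR1 (adjusted p = 0.367) and by 0.00 ± 0.05 for C5AR1 (adjusted p = 0.990). With LPS the differences were -0.09 ± 0.06 for C3AR1 (adjusted p = 0.205), where both KO LPS libraries lay just below both WT LPS libraries, and 0.00 ± 0.06 for C5AR1 (adjusted p = 0.970), where they overlapped.

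With the compound the receptors parted. C3AR1 had 595 and 579 CPM in KO LPS BMS libraries, against 849 and 804 CPM in KO LPS libraries (-0.49 ± 0.06, adjusted p = 2.25e-07), a level that was still above KO without LPS (0.65 ± 0.05, adjusted p = 2.25e-10). C5AR1 had 302 and 296 CPM in KO LPS BMS libraries, against 308 and 331 CPM in KO LPS libraries, which was not called (-0.10 ± 0.06, adjusted p = 0.169; with size-only scaling -0.18, adjusted p = 0.0129). It too was above KO without LPS (0.47 ± 0.05, adjusted p = 6.44e-08). The ratio of C3AR1 to C5AR1 per kilobase was 2.71 and 2.69 in KO LPS BMS libraries, 3.79 and 3.35 in KO LPS, 3.64 and 3.99 in WT LPS, 2.45, 2.32 and 2.39 in KO, and 2.35, 2.16 and 2.34 in WT. The compound libraries lay between those with LPS alone and those without LPS, and this ratio was also chosen after its values were seen.

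Over the 12 libraries the log2 CPM of C3AR1 and C5AR1 had a Pearson correlation of 0.96, C3 and CFP one of 0.89, and C1QB and C1QC one of 0.80, while C1QA and C3 were at -0.44. These are descriptions over 5 groups of shared treatments and carry no test. Among 10553 other genes with at least 5 CPM, those most like C3 were PLA2G4C (0.978), the pseudogene PDE4DIPP2 (0.962), whose reads may be shared with its parent gene, and the fractalkine receptor CX3CR1 (0.960). CFP was most like the calcium channel gene ORAI2 (0.989), TAMALIN (0.987) and TMEM176A (0.984). C3AR1 was most like SLC39A8, a zinc transporter (0.996), ACOD1, the enzyme that makes itaconate (0.994), and UBE2J1 (0.994). The nearest genes to C5AR1 were TNFAIP2 (0.997), G0S2 (0.997) and the kinase gene FGR (0.994). Among the C1q chains, C1QB was nearest to the ribosomal protein genes RPL15 (0.968), RPS9 (0.962) and RPLP0 (0.959), C1QA to OAZ1 (0.973), DAPK3 (0.972) and SSR4 (0.970), and C1QC to HIC1 (0.944) and COTL1 (0.924). C2, at its low counts, reached only 0.810, with PMS2CL, ahead of SMG8 (0.764) and NDUFB9 (0.742).

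Of 54 other complement genes, grouped as initiators, the protease CFD, terminal components, regulators and receptors, 28 passed the filter, and their counts can be read against the same shares of all genes. In KO against WT 15 were called higher (10.2% of all genes) and 1 lower, with a list median of 0.23 and a median of -0.02 over all genes. The 11 receptor genes supplied 10 of the 15, or 9 with DESeq2's size factors. The immunoglobulin-family receptor VSIG4 rose to 874, 863 and 869 CPM in KO libraries, against 611, 592 and 583 CPM in WT libraries (0.55 ± 0.04, adjusted p = 2.98e-09). CR1, which binds C3b and C4b, rose by 0.60 ± 0.06 (adjusted p = 1.35e-07). The collectin COLEC12 rose by 0.79 ± 0.05 (adjusted p = 5.64e-11) and the regulator clusterin (CLU) by 0.86 ± 0.08 (adjusted p = 6.27e-08). C5, the precursor of the C5AR1 ligand, was the 1 gene called lower, with 11.4, 7.77 and 10.5 CPM in KO libraries, against 15.5, 15.5 and 17.4 CPM in WT libraries (-0.71 ± 0.14, adjusted p = 0.000625). With LPS 14 of the 28 were called higher in KO LPS than in WT LPS, among them COLEC12 (1.18 ± 0.07), the CR3 subunit ITGAM (0.86 ± 0.06, adjusted p = 1.25e-10), VSIG4 (0.67 ± 0.05) and the C1 inhibitor gene SERPING1 (0.88 ± 0.08), against 15.6% of all genes called higher.

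With LPS some of these genes were called higher and others lower. In WT LPS against WT 7 of 28 were called higher (28.9% of all genes) and 12 lower (30.8%). In KO LPS against KO 4 of 28 were called higher (24.5% of all genes) and 7 lower (20.3%). In both genotypes the share called higher was below that of all genes and the share called lower above it, each by only a few genes. Whether these shares differ from those of all genes was not tested. The pattern recognition molecule PTX3 rose to 103 and 89.6 CPM in WT LPS libraries, against 0.378, 0.257 and 0.206 CPM in WT libraries (8.39 ± 0.16, adjusted p = 4.21e-21), and in KO cells to 113 and 134 CPM, against 0.645, 0.391 and 0.752 CPM (7.68 ± 0.15). CD55, which speeds the decay of the C3-cleaving enzymes, rose by 1.31 ± 0.08 in WT and 0.93 ± 0.08 in KO cells. COLEC12 fell in WT (-1.66 ± 0.06) and in KO cells (-1.27 ± 0.06). The recognition molecule ficolin-1 (FCN1) fell as well, at -1.09 ± 0.08 in WT and -0.65 ± 0.08 in KO cells. C5AR2, the other receptor for C5a, fell in WT (-1.26 ± 0.11) and KO cells (-0.78 ± 0.10), where C5AR1 rose. CR1 was called higher with LPS in WT (0.56 ± 0.07) and KO cells (0.22 ± 0.07), and ITGAX, the CR4 subunit, in KO cells (0.24 ± 0.07). In KO cells with size-only scaling CR1 was at -0.03 and ITGAX at -0.01. These calls were also lost without KO LPS replicate 1 for CR1 (0.17, adjusted p = 0.133) and without KO LPS replicate 2 for ITGAX (0.15, adjusted p = 0.108). CD93 rose in WT cells (1.09 ± 0.11), where ITGAM fell (-0.82 ± 0.05). VSIG4 fell in KO cells (-0.33 ± 0.05). It was lower with LPS in WT cells too, at 449 and 422 CPM, against 611, 592 and 583 CPM without LPS. Under size-only scaling the split of called genes was 6 higher and 17 lower in WT cells and 2 higher and 16 lower in KO cells.

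With the compound 15 of the 28 were called higher (22.3% of all genes) and 5 lower (25.5%) in KO LPS BMS against KO LPS. All 7 tested regulators were called, 6 of them higher, where 47.8% of all genes were called in either direction. The membrane regulator CD46 rose by 0.34 ± 0.06 (adjusted p = 3.62e-05) and CD55, the regulator called lower, was at -0.52 ± 0.08 (adjusted p = 3.18e-05). COLEC12 (1.01 ± 0.06) and VSIG4 (0.65 ± 0.05) rose, and PTX3 fell to 20.2 and 18.9 CPM, against 113 and 134 CPM in KO LPS libraries (-2.66 ± 0.11, adjusted p = 2.17e-14). CD93 (-1.95 ± 0.14) and C5AR2 (-1.25 ± 0.13) fell too. Against KO, 13 of the 28 were called higher (30.3% of all genes) and 6 lower (32.4%), so that their share called was near the 62.7% of all genes. The higher ones included PTX3 (5.01 ± 0.18), CR1 (0.53 ± 0.07), CD59 (0.37 ± 0.06) and VSIG4 (0.32 ± 0.05). The lower ones included C5AR2 (-2.03 ± 0.12), CD93 (-1.71 ± 0.13), COLEC12 (-0.26 ± 0.06) and C1RL (-0.26 ± 0.06). With size-only scaling the split was 4 higher and 10 lower, where CD59 was at 0.04 and VSIG4 at -0.02.

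**Figure D4:**
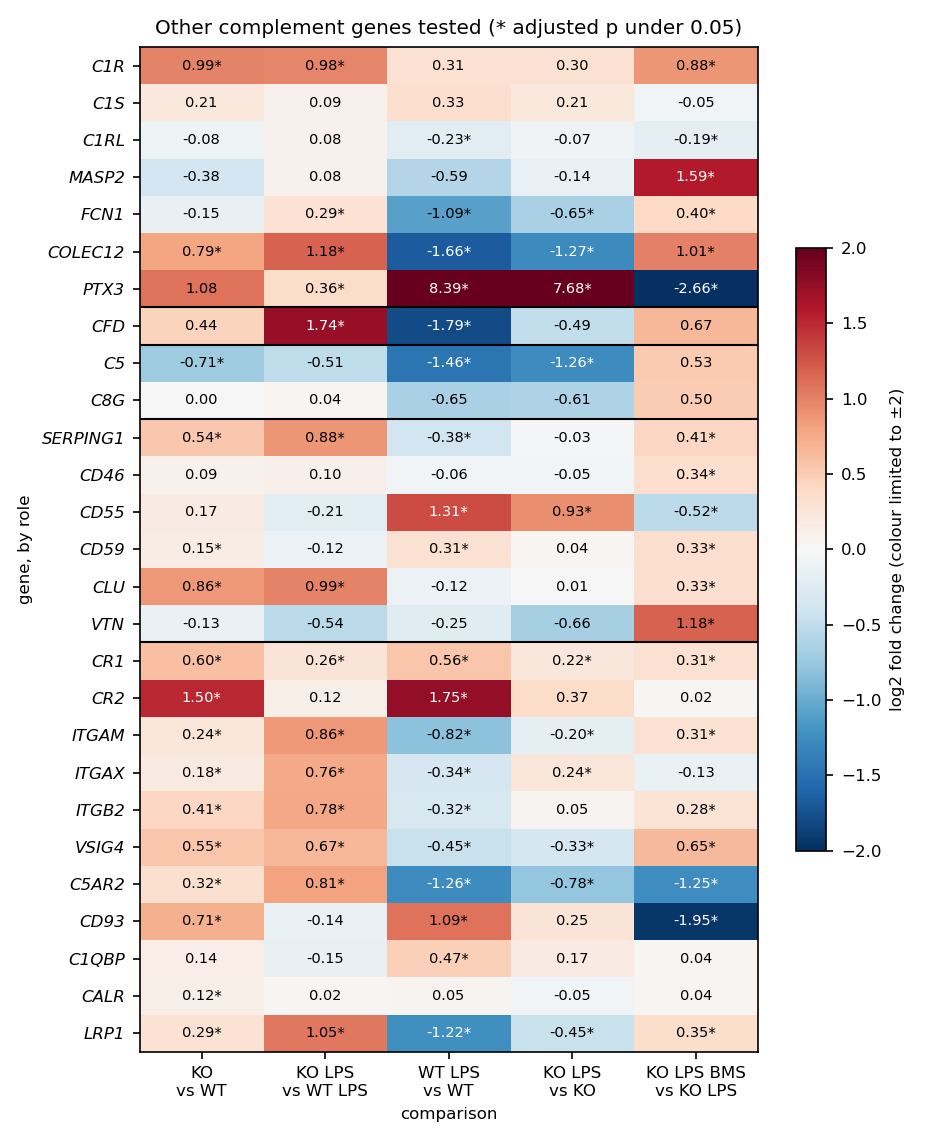
Log2 fold changes of 27 of the 28 other complement genes that passed the filter (rows, in blocks by role) in 5 comparisons (columns); red is higher and blue lower in the group named first, colours stop at 2, and asterisks mark an adjusted p under 0.05. The receptor block is mostly red in both genotype columns, and PTX3 reaches 8.39 and 7.68 with LPS.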

How the data were processed

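Whole-number counts per Ensembl gene ID in 12 libraries were taken as deposited, with no normalization. Per the labels' protocols, TRIzol was used for extraction and a NEBNext Ultra RNA kit for the libraries. The submitters' processing notes name CASAVA 1.7, Cufflinks and GRCh38. No source used here states the aligner, the counter, its use of strand or its handling of overlapping genes. Symbols were matched to 56948 of the 57992 IDs from a gene name table and to 440 more from GENCODE 29.

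Total counts ranged from 13888283 to 17639136 a library. Low counts were removed with filterByExpr, libraries were scaled by TMM (factors of 0.872 to 1.117), and edgeR 4.0.16 in R 4.3.3 fitted 1 mean per group over all 12 libraries by robust quasi-likelihood (common biological coefficient of variation 0.064). Benjamini-Hochberg adjustment ran over all 16022 genes, and the SE was taken from the log2 fold change and its F statistic. The interaction is the LPS effect in KO minus that in WT. Scripts were tested on simulated data. Correlations used log2 CPM with a prior count of 2. The titles number the libraries as biological replicates. Whether these are separate differentiations or clones is not stated, and p-values measure the spread between these libraries.

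The text names the 9 genes, MEF2C, up to 4 other complement genes per direction and comparison (called, lowest adjusted p, mean of at least 5 CPM) and the 3 genes most correlated with each of the 9. A few results that these rules give are not reported here. The members and lists were chosen with earlier results of these data known. Alternatives were DESeq2 1.42.0, its size factors, library size only, no filter, only the groups compared, a replicate block and leaving out each library. Each group holds 2 or 3 libraries, which limits the precision.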

Additional observations from a re-analysis of the deposited data

Results flagged for a closer look

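A genotype by LPS interaction, the LPS effect in KO minus that in WT, was called by edgeR's quasi-likelihood test for C3 and for 11 of the 28 other complement genes tested, 7 higher and 4 lower, where 12% of all genes were called (6.42% higher and 5.57% lower). With DESeq2's size factors 5 were called higher and 5 lower. C3 and at most 4 genes per direction are given here, each for that difference between the LPS effects of the genotypes. C3 was at 0.45 (adjusted p = 4.70e-05). The CR3 and CR4 subunits ITGAM (0.62, adjusted p = 4.19e-06) and ITGAX (0.58, adjusted p = 0.000284), the C1q-binding receptor gene LRP1 (0.77, adjusted p = 0.000711) and COLEC12 (0.39, adjusted p = 0.00366) were higher with LPS in KO cells than the WT change would give. CD93 (-0.85, adjusted p = 0.000921), CR1 (-0.34, adjusted p = 0.0236), CD55 (-0.38, adjusted p = 0.0242) and CD59 (-0.26, adjusted p = 0.0307) were lower in the same sense. ITGAM averaged 603 CPM in KO LPS, 332 CPM in WT LPS, 693 CPM in KO and 586 CPM in WT. The call of CR1 was lost without WT replicate 3 (-0.31), KO replicate 3 (-0.29), WT LPS replicate 2 (-0.33) or KO LPS replicate 2 (-0.32), and that of CD55 without WT replicate 2 (-0.37), WT replicate 3 (-0.34), KO replicate 1 (-0.32) or WT LPS replicate 2 (-0.37). That of CD59 was lost without any 1 of 6 libraries, at -0.28 to -0.22, with library size only (-0.23) and with the replicate block (-0.27).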

How the results depend on the processing

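The C3 interaction kept its direction and call under all 16 alternatives (0.40 to 0.49, adjusted p 3.04e-07 to 0.000674). The lower C3, CFP, C1QB and C1QC in KO against WT kept theirs under the 12 alternatives run there. With library size only, the split of called genes moved to 26.7% higher in WT LPS against WT (48.4% with TMM), 25.5% in KO LPS against KO (54.7%), 26.1% in KO LPS BMS against KO (48.4%), 60.6% in KO LPS against WT LPS (51.0%) and 65.3% in the interaction (53.5%, or 43.5% with DESeq2's size factors). Under it 18 other complement genes were called in KO LPS against KO and 4 of the 9 genes in KO LPS BMS against KO; WT LPS against WT turned to -0.23 for C1QB, -0.08 for C2 and -0.10 for C3; KO LPS against KO to -0.13 for C1QB, -0.01 for ITGAX and -0.03 for CR1; KO LPS against WT LPS to 0.03 for C3; and KO LPS BMS against KO to 0.00 for C1QC, -0.21 for C3, -0.03 for CFP and -0.02 for VSIG4. Without the filter 7 of the 9 genes were called in WT LPS against WT, with C1QA, C1QC and CFB added. With only the groups compared, KO LPS against WT LPS called 1 of the 9 genes and 2660 genes in all. Small changes also turned sign. C5AR1 in KO against WT was at 0.00 with DESeq2 and with its size factors, 0.01 with library size only and 0.02 with only the groups compared, where C2 was at 0.00. In KO LPS against WT LPS C5AR1 was at -0.04 with DESeq2 and with its size factors, -0.03 without the filter and -0.01 with only the groups compared. In the interaction C5AR1 was at -0.04, -0.04, -0.02 and -0.05 in the same order, and CFP at 0.00 with DESeq2 and with its size factors and -0.01 with only the groups compared. The cause of these changes was not tested.

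Leaving out each library in turn, KO LPS against WT LPS called 3005 to 5549 genes, and the interaction called 1 to 2 of the 9 genes, 6 to 12 other complement genes and 1162 to 3079 genes in all. In KO against WT, C1QA ranged from -0.01 to 0.02, C2 from -0.30 to 0.27 and C5AR1 from -0.01 to 0.01. In WT LPS against WT, C1QA ranged from -0.32 to 0.02 and C1QB from -0.07 to 0.17, and in KO LPS against KO C1QA from -0.11 to 0.05. In KO LPS against WT LPS, C1QA ranged from -0.03 to 0.31, C3 from -0.06 to 0.02 and C5AR1 from -0.05 to 0.05. In the interaction, C1QA ranged from -0.03 to 0.31, C1QB from -0.04 to 0.20, C1QC from -0.06 to 0.26, C2 from -0.07 to 0.51, CFP from -0.12 to 0.23 and C5AR1 from -0.04 to 0.05. In KO LPS BMS against KO LPS, C2 ranged from -0.24 to 0.61.

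Over 21 same-numbered pairs of libraries the correlations of deviations from the group mean were -0.143 to 0.103. Between groups of 2 libraries crossed numbers give the same values with the opposite sign, so these correlations cannot settle whether the numbers pair the libraries. With the replicate block 3091 genes were called in KO against WT, 8973 in WT LPS against WT, 6562 in KO LPS against KO, 4454 in KO LPS against WT LPS, 1543 in the interaction, 7379 in KO LPS BMS against KO LPS and 9551 in KO LPS BMS against KO, where 6 of the 9 genes were called and CFP was not. With the KO LPS numbers crossed, chosen after seeing the data, the block called 4651 genes in KO LPS against WT LPS and 7514 in KO LPS BMS against KO LPS. Depth limits C2 and CFB, at 21 to 60 and 0 to 8 reads a library.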
